A study of Mus musculus with 6 samples.

Results

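Pericytes are the mural cells that wrap the capillaries of the brain, where they sit in the basement membrane shared with the endothelium, hold tone in the capillary bed and contribute to the blood-brain barrier. Like other cells they keep a circadian clock, in which CLOCK and ARNTL (BMAL1) drive the period, cryptochrome, REV-ERB and PAR bZIP genes, and the period and cryptochrome proteins in turn hold CLOCK and ARNTL back. They also carry the glucocorticoid receptor, which raises genes such as *Zbtb16*, *Fkbp5*, *Tsc22d3*, *Klf9* and *Per1* when the adrenal hormone level is high. That hormone follows both a daily rhythm and stress.

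The pericytes described here came from amygdala cell suspensions of mice killed after fear conditioning. A barcode was taken as a pericyte if it had at least 500 genes, under 6% mitochondrial unique molecular identifiers (UMIs), at least 10 UMIs of *Vtn* and *Rgs5* together, at most 5 of *Slc1a2* and *Slc1a3* together, fewer than 5 of *Acta2* and fewer than 3 of *Dcn*. Its strongest hashtag, an antibody-borne oligonucleotide that marks the mouse, had to have at least 10 UMIs and 3 times as many as the next. Of 13546 barcodes in 3 libraries, 2188 met the limits on genes and markers, 1511 of these had a clear hashtag and 990 belonged to 1 of the 16 mice in the deposited hashtag table. Among these were 222 pericytes of 4 NoFR mice and 291 of 4 FC mice, or 513 in the comparison. The deposited labels give all pools as male wild-type C57BL/6N, whereas the methods state for the study as a whole that animals of either sex were used. FC mice had received foot shocks in the conditioning chamber and were killed 90 min after the start of the session. NoFR mice had been conditioned in the same way, stayed in the home cage and were killed a day later without a recall session. The other 8 mice were 4 NoFC mice, placed in the chamber without shock, and 4 FR mice, conditioned and returned to the chamber a day later. All groups were habituated, and all tissue was dissociated with papain in the presence of inhibitors of transcription and translation and sorted after staining for CD11b, CD45, O1 and ACSA-2. The comparison thus sets pericytes a day after conditioning against pericytes 90 min after it, and asks which transcripts differed between these groups. Behaviour was run in the light phase, but no source used here gives the hour at which a mouse was killed. NoFR mice were also the only ones not placed in the chamber on the day they were killed. Time since conditioning, time of day and recent time in the chamber therefore cannot be told apart in this comparison.

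Library 1 held 2 mice of every group, library 2 held 2 FC mice with 1 NoFC and 1 FR mouse, and library 3 held 2 NoFR mice with 1 NoFC and 1 FR mouse. A NoFR mouse had between 38 and 81 pericytes and an FC mouse between 37 and 100, with summed counts of 187654 to 425182 and 202922 to 486831 UMIs. The median pericyte of each of these mice had 4719 to 5349 UMIs. In 2-sided exact permutation tests over mice, NoFR against FC had p = 0.343 for the number of pericytes (55.5 ± 18.4 against 72.8 ± 28.3, SD, n = 4 each), p = 0.314 for the summed UMIs and p = 0.971 for the mitochondrial share. Pericytes made up 78.0 ± 5.20% of the assigned barcodes of a NoFR mouse and 71.7 ± 28.5% of an FC mouse (exact permutation p = 0.914). These shares are only of barcodes with a clear hashtag and are not those of the sorted cells. Before hashtag calls, 2188 of the 11103 barcodes within the limits on genes and mitochondrial UMIs met the pericyte rule. The deposited labels call the sorted cells astrocytes, but these barcodes carried pericyte transcripts: *Pdgfrb* was found in 99.5% of the 990, *Higd1b* in 96.2% and *Kcnj8* in 94.8%, against 44.3%, 1.10% and 0.733% of astrocyte barcodes. The paper's methods state that pericytes were taken out by their *Pdgfrb*, so they were not among the astrocytes it analysed. In the summed levels of 10 marker lists, among them endothelial, smooth muscle, fibroblast, astrocyte and microglial genes, the smallest exact permutation p between NoFR and FC was 0.114, for the astrocyte list (954 to 1032 CPM in NoFR mice, 842 to 1005 in FC mice), and the smallest adjusted over the lists was 0.429. The pericyte, smooth muscle, fibroblast and astrocyte lists hold genes that the pericyte rule itself limited, so their levels were partly set by that rule. Most of the astrocyte list's level was *Atp1b2*, at 681 CPM over all pericytes and found in 92.9% of them. That list therefore does not measure astrocyte contamination. Erythrocyte genes were at 0 in all 8 mice. The mouse FC 1 stood apart, with 143 astrocytes under the same hashtag rule against 2 to 12 in the other FC mice, so that pericytes were 29.8% of its assigned barcodes. Without FC 1 the difference in share between the groups turned from 6.27 to −7.71 percentage points (NoFR minus FC). The limit on *Vtn* and *Rgs5* cut few cells: 17 hashtag-called barcodes of listed mice had 3 to 9 UMIs of these genes, 17 had 10 to 19 and 901 had 50 or more. The limit on *Slc1a2* and *Slc1a3* left out 7 barcodes with 6 to 10 UMIs of them and 42 with 11 or more. How many the *Acta2* and *Dcn* limits left out was not counted. No pericyte barcode was shared between libraries.

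Counts were summed per mouse, and the level of a gene is given as CPM, its UMIs scaled to the mouse's total over the tested genes after TMM normalization. For clock genes below the filter the total was over all genes, again with TMM. The marker lists above were scaled to the total over all genes without TMM. Of 32285 genes, 6337 passed the filter on low counts and were tested with edgeR's quasi-likelihood test over all 16 mice, with the library as a covariate. At a Benjamini-Hochberg adjusted p of 0.05, 22 genes were lower in NoFR than in FC pericytes (0.347% of those tested) and 10 were higher (0.158%). Of the 22 genes that fell, 5 were on the list of clock output genes and 4 on that of glucocorticoid-induced genes, with the largest fitted changes of these at 14.2-fold for *Zbtb16* and 5.39-fold for *Fkbp5*, and 3.08-fold for *Dbp*. Of the 10 that rose, *Gm13889* and *Asap2* had the smallest adjusted p. The median log2 fold change over all genes tested was 0.01. In 28 of the 32 genes the 4 NoFR mice did not overlap with the 4 FC mice, 19 of them lower and 9 higher. Over all genes tested, the NoFR mice lay wholly below the FC mice in 2.89% and wholly above in 2.11%. With 4 mice against 4, no exact permutation p can be smaller than 0.0286. Groups that do not overlap always have this p, so for these 28 genes it only restates the lack of overlap. Where a fold change is given below it is the fitted log2 fold change, NoFR minus FC, with a standard error (SE). The SE was derived as the size of the fold change divided by the square root of its F statistic. Adjusted p-values are those of edgeR. Nothing says whether the mice of a group shared a litter or cage.

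For genes that fell or belong to the clock, promoter sequences are shown because the factors that drive these genes bind known short motifs. RefSeq promoter windows, from 250 bases before to 50 after a RefSeq start of the gene in GRCm38.p6, were found for 24 of the 32 called genes. They were searched on both strands for the E-box CACGTG that CLOCK and ARNTL bind, the D-box TTATGTAA of the PAR bZIP factors, the cyclic AMP response element TGACGTCA and the core of the glucocorticoid response element, GNACA and TGTNC with 3 bases between them. The matched letters are in capitals and every sequence runs 5′ to 3′.
*Tef* (chr15:81802423-81802722, forward strand): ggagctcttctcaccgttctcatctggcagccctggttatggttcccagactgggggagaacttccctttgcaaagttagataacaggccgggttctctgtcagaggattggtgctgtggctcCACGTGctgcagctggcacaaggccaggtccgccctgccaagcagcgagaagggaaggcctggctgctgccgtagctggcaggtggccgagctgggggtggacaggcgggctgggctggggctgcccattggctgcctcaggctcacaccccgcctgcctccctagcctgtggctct
*Fkbp5* (chr17:28486100-28486399, reverse strand): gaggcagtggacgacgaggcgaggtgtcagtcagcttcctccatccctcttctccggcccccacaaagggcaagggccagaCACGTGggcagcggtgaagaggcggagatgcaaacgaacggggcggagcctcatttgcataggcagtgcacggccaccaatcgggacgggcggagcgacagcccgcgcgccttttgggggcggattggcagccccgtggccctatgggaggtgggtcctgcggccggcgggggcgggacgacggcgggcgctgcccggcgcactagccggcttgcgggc
*Hlf* (chr11:90390868-90391167, reverse strand): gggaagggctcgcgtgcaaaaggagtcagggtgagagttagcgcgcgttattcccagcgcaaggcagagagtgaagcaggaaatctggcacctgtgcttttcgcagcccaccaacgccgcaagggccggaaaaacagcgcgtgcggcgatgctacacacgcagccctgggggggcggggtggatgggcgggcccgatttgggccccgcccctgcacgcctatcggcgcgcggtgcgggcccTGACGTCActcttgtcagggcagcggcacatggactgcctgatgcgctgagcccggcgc
*Per3* (chr4:151044616-151044915, reverse strand): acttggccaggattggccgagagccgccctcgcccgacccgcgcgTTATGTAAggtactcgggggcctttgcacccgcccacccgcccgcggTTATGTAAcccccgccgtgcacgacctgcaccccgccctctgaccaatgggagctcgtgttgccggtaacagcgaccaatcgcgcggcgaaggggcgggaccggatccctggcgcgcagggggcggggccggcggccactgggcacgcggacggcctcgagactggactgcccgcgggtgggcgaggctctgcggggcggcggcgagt
*Dbp* (chr7:45704997-45705296, forward strand): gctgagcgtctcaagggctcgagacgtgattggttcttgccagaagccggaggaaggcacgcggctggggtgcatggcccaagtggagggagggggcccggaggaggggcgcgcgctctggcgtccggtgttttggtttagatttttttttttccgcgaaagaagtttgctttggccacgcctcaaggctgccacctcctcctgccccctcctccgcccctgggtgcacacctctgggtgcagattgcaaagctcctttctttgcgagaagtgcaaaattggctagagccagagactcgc
The windows of *Tef*, *Fkbp5*, *Hlf* and *Dbp* belong to genes that fell, and that of *Per3* is shown for its D-box although *Per3* missed the threshold. A further *Tef* window, at an alternative start, also held the E-box, 138 bases before that start. Distances are to the RefSeq start of the window, which can differ from the GENCODE bounds given for a gene below. The windows shown for *Tef* and *Fkbp5* lie inside those bounds. The E-box stood 127 bases before the RefSeq start of *Tef* and 169 before that of *Fkbp5*. The cyclic AMP response element stood 9 before that of *Hlf*, and *Per3* held the D-box at 205 and 158 bases before its start. None of these letters were in the *Dbp* window. Of the 24 called genes, 5 held the E-box in any of their windows (*Fkbp5*, *Ifi30*, *Pdxk*, *Sema6d* and *Tef*), and 7.15% of all 32851 promoter windows held it. The called genes were counted by gene and all promoters by window. A gene can have several windows, as *Tef* does, so these shares are not in the same unit. *Hlf* alone held the cyclic AMP element (1.79% of all promoters), and 0 held the D-box (0.938%) or the glucocorticoid element core (0.475%). A match is a description of the sequence and does not show that a factor was bound. *Zbtb16* had no entry in the promoter table.

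The PAR bZIP factors *Dbp*, *Tef* and *Hlf*, which carry the clock's signal to metabolic genes, all fell. *Dbp* (ENSMUSG00000059824, forward strand of chromosome 7 from 45705088 to 45710203 in GRCm38, GENCODE vM21) was at 270.4, 319.7, 295 and 290.3 CPM in the 4 FC mice and 84.7, 62.3, 90.4 and 159 in the 4 NoFR mice (log2 fold change −1.62, SE 0.21, adjusted p = 2.43e-07, edgeR). *Tef*, on the forward strand of chromosome 15 from 81802421 to 81826863, was at 113, 159.8, 177 and 121 CPM in FC and 36.3, 56.6, 75.4 and 87.6 in NoFR mice (log2 fold change −1.23, SE 0.25, adjusted p = 0.00287). *Hlf*, on the reverse strand of chromosome 11 from 90336536 to 90390895, was at 389.9, 499, 475 and 359 CPM in FC and 206, 169.8, 274 and 271 in NoFR mice (log2 fold change −0.92, SE 0.17, adjusted p = 0.000387). In each of these genes the highest NoFR mouse lay below the lowest FC mouse, and the gap was widest in *Dbp*.

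Of the repressors of the loop, *Nr1d1* and *Per2* passed the test. *Nr1d1* encodes REV-ERB alpha, the heme-bound repressor of *Arntl*. On the reverse strand of chromosome 11 from 98767932 to 98775333, it was at 258, 309, 279 and 322 CPM in FC and 101, 181, 198 and 163 in NoFR mice (log2 fold change −0.91, SE 0.18, adjusted p = 0.00189). *Per2*, a core repressor, on the reverse strand of chromosome 1 from 91415982 to 91459324, was at 53.5, 65.7, 63.8 and 89.7 CPM in FC and 12.1, 28.3, 22.6 and 25.0 in NoFR mice (log2 fold change −1.46, SE 0.37, adjusted p = 0.0327). Neither gene overlapped between the groups. Without the NoFR 1 mouse *Nr1d1* and *Tef* were at −0.71 and −0.997 (adjusted p of 0.0904 and 0.0907), against −0.91 and −1.23 with all mice. *Per2* lost its call without NoFR 1, NoFR 3, FC 2, FC 4, NoFC 3 or NoFC 4, with log2 fold changes of −1.51 to −1.21 (adjusted p of 0.0713 to 0.271). The calls of *Dbp* and *Hlf* were kept without any 1 mouse.

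The other tested members of the clock output list had negative values that did not pass the test. *Nr1d2*, the paralogue of *Nr1d1*, was at 239, 247, 198 and 227 CPM in FC and 141, 108, 123 and 134 in NoFR mice without overlap (adjusted p = 0.0749). *Per3* was at 47.2, 67.9, 52.0 and 15.8 CPM in FC and 16.1, 17.0, 25.1 and 12.5 in NoFR mice (log2 fold change −1.62, SE 0.43, adjusted p = 0.0695), where the lowest FC mouse lay among the NoFR mice. *Per1*, *Bhlhe40* and *Cry2* had log2 fold changes of −0.89, −1.56 and −0.73 (adjusted p of 0.337, 0.358 and 0.551), and their mice overlapped. Of the 13 genes on the list, 10 passed the filter, 5 of these were called lower, against 0.347% of all genes tested, and 10 of 10 had a negative log2 fold change with a median of −1.08. The list was written with earlier results of these data known, so its count describes these genes and is not independent evidence.

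**Figure D1:**
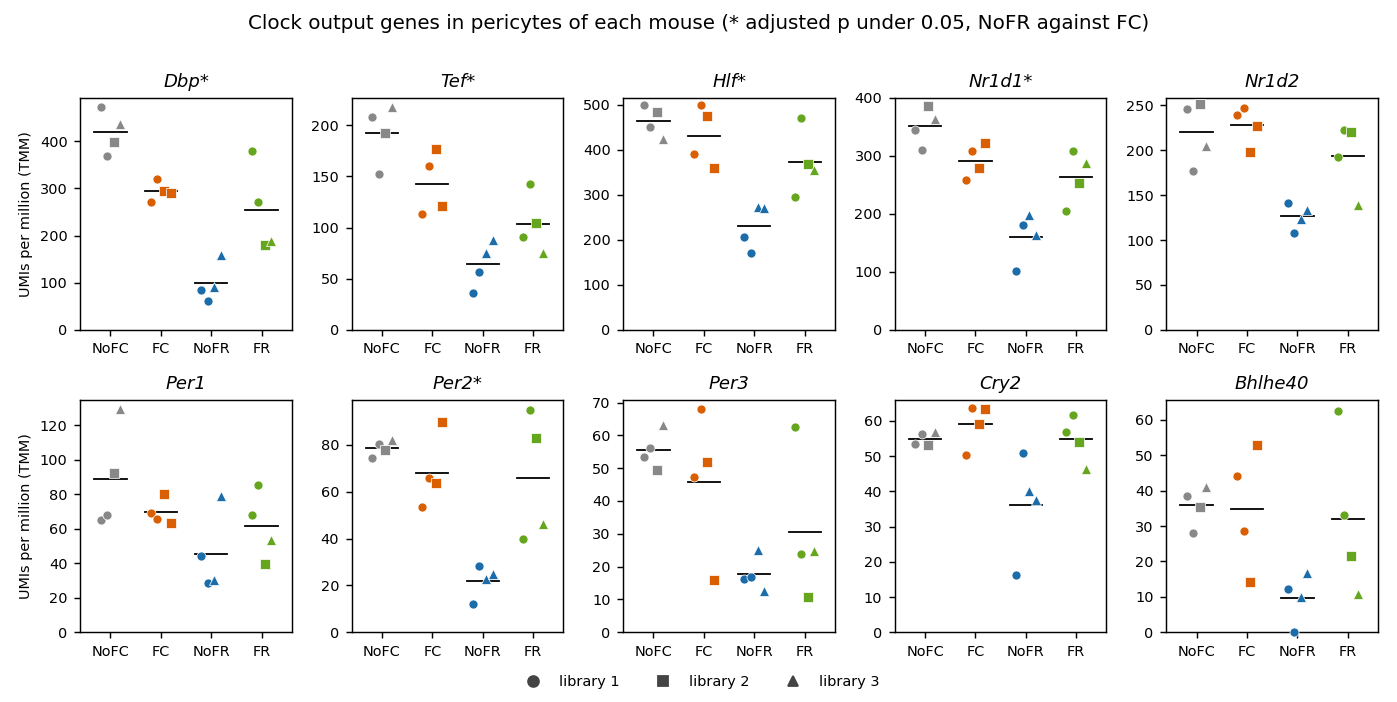
Level of the 10 tested clock output genes in the pericytes of each of 16 mice, in TMM-scaled CPM on a linear axis from 0, by group, with symbols for the library and a line at the mean of 4 mice. In *Dbp* the NoFR mice reach 159 CPM at most and the FC mice lie at 270.4 or above, while *Per1*, *Per3*, *Cry2* and *Bhlhe40* overlap between NoFR and FC.

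Other members of the clock lists were below the filter and are described by their counts and by the fit made without that filter. *Arntl*, the partner of CLOCK and target of the REV-ERB proteins, had 7, 16, 21 and 16 UMIs in the NoFR mice and 2, 1, 5 and 2 in the FC mice, or 26.2, 82.9, 49.7 and 61.4 against 5.79, 2.07, 11.1 and 9.74 CPM. *Npas2*, a paralogue of *Clock*, had 11, 8, 7 and 5 UMIs in NoFR and 1, 2, 3 and 2 in FC mice. Both stood higher in every NoFR mouse than in any FC mouse, the reverse of the output genes. Without the filter the log2 fold change of *Arntl* was 3.03 (SE 0.53, adjusted p = 3.75e-05 over 16776 genes) and that of *Npas2* 2.64 (SE 0.68, adjusted p = 0.0409). *Ciart*, a repressor of CLOCK and ARNTL, had 0, 0, 3 and 1 UMIs in NoFR and 14, 9, 5 and 5 in FC mice (adjusted p = 0.0938 without the filter), and *Cry1* had 7, 1, 7 and 3 and 10, 8, 12 and 7. *Ciart* did not overlap and *Cry1* did. *Bhlhe41* had 2 UMIs in all NoFR pericytes and 14 in all FC pericytes and *Nfil3* had 3 and 0. Of the positive limb only *Clock*, *Rora* and *Rorb* passed the filter. *Clock* was at 135, 125, 104 and 153 CPM in FC and 198, 221, 148 and 125 in NoFR mice, with overlap (adjusted p = 0.383).

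**Figure D2:**
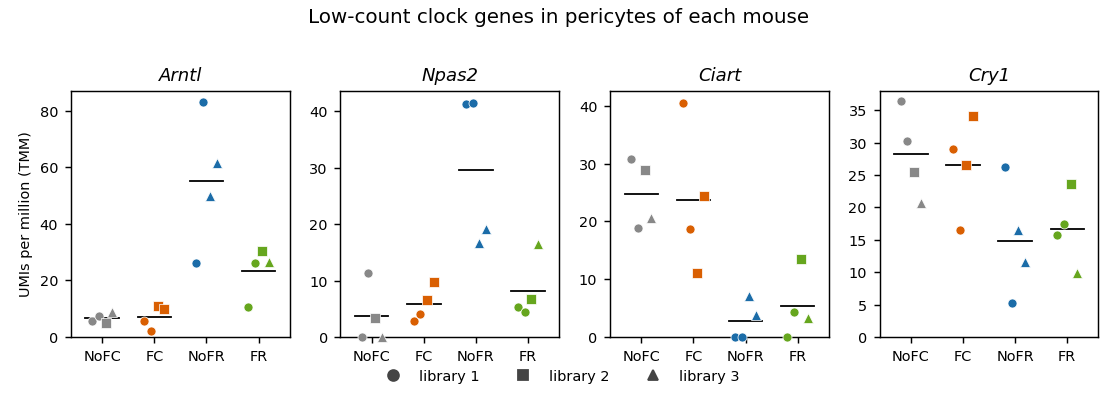
Level of 4 clock genes below the filter on low counts in the pericytes of each of 16 mice, in TMM-scaled CPM on a linear axis from 0, by group, with symbols for the library and a line at the mean of 4 mice. *Arntl* and *Npas2* are higher in every NoFR mouse than in any FC mouse, *Ciart* is lower, and *Cry1* overlaps. These values rest on 0 to 21 UMIs a mouse.

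Of all genes called, the largest fold change was that of a glucocorticoid-induced gene. *Zbtb16* (ENSMUSG00000066687, reverse strand of chromosome 9 from 48654297 to 48836222) encodes PLZF, a zinc-finger transcription factor whose transcript rises under glucocorticoids in many cell types. It was counted with 48, 54, 58 and 37 UMIs in the FC mice and 3, 2, 5 and 3 in the NoFR mice, or 151, 118, 137 and 195 against 12.1, 11.3, 12.6 and 12.5 CPM. The means were 150.4 ± 32.8 and 12.1 ± 0.574 CPM (SD, n = 4 mice each, log2 fold change −3.82, SE 0.35, adjusted p = 4.9e-13, edgeR), and the 2 groups stood far apart. Each NoFR value thus rests on 2 to 5 UMIs. *Zbtb16* kept its call in all 32 alternatives, with log2 fold changes from −3.96 to −3.19, and *Dbp* did so as well.

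*Klf9*, a Krüppel-like repressor under both hormonal and clock control, on the forward strand of chromosome 19 from 23141226 to 23168134, was at 582, 451, 498 and 538 CPM in FC and 327, 362, 319 and 275 in NoFR mice (log2 fold change −0.82, SE 0.15, adjusted p = 0.000442). *Fkbp5*, the co-chaperone that lowers the hormone affinity of the glucocorticoid receptor, on the reverse strand of chromosome 17 from 28399094 to 28517527, had 10, 14, 34 and 8 UMIs in FC and 1, 5, 2 and 4 in NoFR mice, or 31.4, 30.7, 80.3 and 42.2 against 4.03, 28.3, 5.02 and 16.7 CPM (log2 fold change −2.43, SE 0.54, adjusted p = 0.00773). *Tsc22d3* (GILZ), an anti-inflammatory leucine zipper protein, on the reverse strand of chromosome X from 140539528 to 140600659, was at 233, 98.5, 113 and 63.3 CPM in FC and 84.7, 62.3, 55.3 and 58.4 in NoFR mice (log2 fold change −1.13, SE 0.28, adjusted p = 0.0327). *Klf9* was clearly separated, *Fkbp5* only narrowly between NoFR 2 and the 2 FC mice of library 1, and *Tsc22d3* overlapped, with FC 1 far above the rest. Without FC 1 the log2 fold change of *Tsc22d3* was −0.66 (adjusted p = 0.546), and without FC 3 that of *Fkbp5* was −1.98 (adjusted p = 0.113). *Fkbp5* also lost its call without NoFR 1, NoFR 3 or NoFC 4 (−2.27 to −1.91, adjusted p of 0.06 to 0.0942), and *Tsc22d3* without FC 3, NoFR 2, NoFR 3, NoFR 4, NoFC 4 or FR 3 (−1.11 to −0.96, adjusted p of 0.0542 to 0.197). *Klf9* kept its call without any 1 mouse.

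Of the 20 genes on the glucocorticoid-induced list, 10 passed the filter and 4 were called lower, against 0.347% of all genes tested. All 10 had negative values, with a median log2 fold change of −0.86, and this list too was written with earlier results known. *Cebpd*, a C/EBP transcription factor, was at 314, 271, 300.0 and 296 CPM in FC and 222, 238, 181 and 184 in NoFR mice without overlap and missed the threshold (adjusted p = 0.0994). *Ddit4*, *Sult1a1* and *Per1*, which also stands on the clock list, had log2 fold changes of −0.91, −0.66 and −0.89 with overlapping mice. *Mt1* and *Nfkbia* had the values nearest 0, at −0.21 and −0.07. Below the filter were *Sgk1* with 13 UMIs in NoFR and 21 in FC pericytes, *Pdk4* with 6 and 7, *Mt2* with 11 and 14, *Errfi1* with 23 and 40, *Dusp1* with 19 and 33, *Cdkn1a* with 19 and 6, *Map3k6* with 2 and 11, *Hif3a* with 4 and 8, *Arrdc2* with 6 and 12, and *Plin4* with 0 in both.

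**Figure D3:**
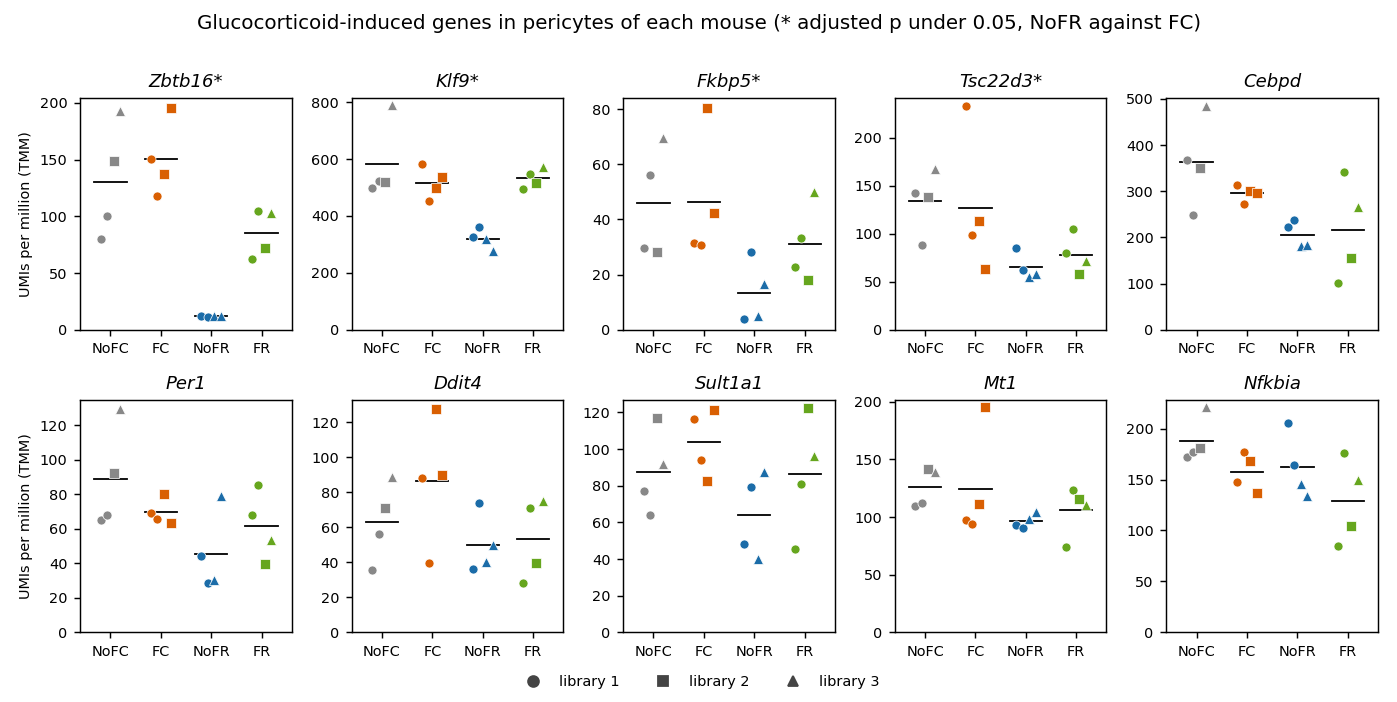
Level of the 10 tested glucocorticoid-induced genes in the pericytes of each of 16 mice, in TMM-scaled CPM on a linear axis from 0, by group, with symbols for the library and a line at the mean of 4 mice. *Zbtb16* is at 11.3 to 12.6 CPM in the NoFR mice and at 118 to 195 in the FC mice, *Klf9* is separated as well, and *Tsc22d3* overlaps.

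Of the other genes that fell, *Mxi1*, which encodes an antagonist of MYC, was at 141, 136, 144 and 121 CPM in FC and 52.4, 50.9, 65.3 and 66.8 in NoFR mice (log2 fold change −1.49, SE 0.25, adjusted p = 0.000175). *Pde10a*, which breaks down cyclic AMP and cyclic GMP, was at 50.3, 105, 78.0 and 111 CPM in FC and 20.2, 34.0, 17.6 and 33.4 in NoFR mice (log2 fold change −1.78, SE 0.36, adjusted p = 0.00272). *Ifi30*, the thiol reductase of antigen-processing lysosomes, was at 333, 263, 234 and 285 CPM in FC and 185, 142, 141 and 100.1 in NoFR mice (log2 fold change −1.10, SE 0.19, adjusted p = 0.000244). The NoFR mice of all 3 genes lay below the FC mice. *Pdxk*, the kinase that makes the active form of vitamin B6 and a known target of the PAR bZIP factors, was at 214, 234, 257 and 253 CPM in FC and 121, 136, 136 and 117 in NoFR mice (log2 fold change −0.98, SE 0.18, adjusted p = 0.0008). *Rgcc*, a regulator of the cell cycle, was at 208, 300.0, 286 and 179 CPM in FC and 105, 125, 116 and 167 in NoFR mice (log2 fold change −1.05, SE 0.20, adjusted p = 0.000922). *BC028528* was at 236, 243, 217 and 269 CPM in FC and 157, 125, 158 and 167 in NoFR mice (log2 fold change −0.86, SE 0.18, adjusted p = 0.00365). None of these 3 overlapped. Of the 6 genes only *Pde10a* lost its call without 1 mouse, FC 2 or NoFR 3 (log2 fold change −1.31 and −1.47, adjusted p of 0.121 and 0.0587).

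Lipid-handling genes were among those called lower. *Angptl4*, which encodes an inhibitor of lipoprotein lipase, had 22, 14, 17 and 10 UMIs in FC and 3, 2, 0 and 5 in NoFR mice (log2 fold change −2.54, SE 0.58, adjusted p = 0.0113). *Lpin1*, a phosphatidate phosphatase, was at 69.2, 65.7, 52.0 and 73.9 CPM in FC and 24.2, 11.3, 20.1 and 41.7 in NoFR mice (log2 fold change −1.49, SE 0.36, adjusted p = 0.0213). *Pnpla2*, the adipose triglyceride lipase, was at 119, 112, 68.5 and 132 CPM in FC and 52.4, 39.6, 72.8 and 66.8 in NoFR mice (log2 fold change −1.09, SE 0.27, adjusted p = 0.0327). *Angptl4* and *Lpin1* were separated, whereas FC 3 lay within the range of the NoFR mice for *Pnpla2*. *Trp53inp1*, a p53-induced gene, was at 138, 103, 116 and 84.5 CPM in FC and 64.5, 45.3, 47.7 and 62.6 in NoFR mice without overlap (log2 fold change −1.22, SE 0.29, adjusted p = 0.0213). Each of these 4 calls was lost without any of several mice, with the direction kept. *Angptl4* lost its call without FC 1, NoFC 4 or NoFR 3 (log2 fold change −2.28 to −1.89, adjusted p of 0.103 to 0.144) and *Trp53inp1* without FC 1, NoFC 4, NoFR 2, NoFR 3 or FR 3 (−1.18 to −1.06, adjusted p of 0.061 to 0.155). *Lpin1* lost it without FC 1, FC 2, NoFC 4, NoFR 1, NoFR 2 or NoFR 3 (−1.52 to −1.28, adjusted p of 0.0535 to 0.141), and *Pnpla2* without NoFC 4, any NoFR mouse or any FC mouse but FC 3 (−1.15 to −0.99, adjusted p of 0.0609 to 0.158). These 4 genes with *BC028528* and *Timp3* were outside the naming rule and were added after their values were seen. No list of lipid genes beyond cholesterol synthesis was tested, and of that list's 6 tested genes edgeR called 0.

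Among genes linked to pericyte function, *Rgs4* and *Timp3* were called lower. *Rgs4*, a GTPase activator that shortens signalling by Gq- and Gi-coupled receptors and one of the most abundant mural transcripts, was at 1685, 1973, 2166 and 2191 CPM in FC and 1492, 1138, 1339 and 1536 in NoFR mice (log2 fold change −0.58, SE 0.12, adjusted p = 0.00498). It was the only called gene among 12 tested of 18 on the vasoactive list, where 0.347% of all genes tested were called lower. *Timp3*, the matrix-bound inhibitor of metalloproteinases, was at 500.0, 383, 465 and 528 CPM in FC and 363, 345, 239 and 334 in NoFR mice (log2 fold change −0.80, SE 0.17, adjusted p = 0.00498). Both genes were separated between the groups, but *Rgs4* lost its call without NoFC 4 (−0.48, adjusted p = 0.06) and *Timp3* without NoFC 4 or NoFR 3 (−0.68 and −0.64, adjusted p of 0.0582 and 0.0696). No gene was called among 10 tested contractile genes, 15 of basement membrane and matrix, 12 of growth factor and Notch signalling and 10 pericyte transporters, channels and ectoenzymes, with median log2 fold changes of −0.01, −0.01, −0.29 and −0.03. Of all genes tested 0.347% were called lower and 0.158% higher, so lists of this size without a call do not stand apart from them. The members with the smallest p were *Myh11* (−0.73, adjusted p = 0.39), *Col4a2* (0.24, 0.786), *Pdgfa* (−0.78, 0.445) and *Abcc9*, the sulfonylurea receptor subunit of the pericyte potassium channel (−0.32, 0.297). The adrenoreceptor gene *Adra1a* had 15.7, 32.8, 16.5 and 42.2 CPM in FC and 12.1, 17.0, 0 and 25.0 in NoFR mice, with overlap (adjusted p = 0.88).

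Of the tested immediate early and heat shock genes, *Ier3* alone was called. *Ier3*, an immediate early gene, was at 138, 232, 118 and 153 CPM in FC and 60.5, 56.6, 77.9 and 134 in NoFR mice (log2 fold change −1.19, SE 0.24, adjusted p = 0.00265). NoFR 4 lay within the FC range, and the log2 fold change was −0.39 between the NoFR mice of library 3 and the FC mice of library 2. Without FC 2 or NoFR 1 it was −0.95 and −0.998 (adjusted p of 0.108 and 0.0904). *Ier3* was the only gene called among 10 tested of 25 immediate early genes, where 0.347% of all genes tested were called lower. Of the 10, 5 had negative values, as did 3122 of all 6337 genes tested. Their median log2 fold change was 0.06 and the highest 1.34. In 1 of the 10 the NoFR mice lay wholly above the FC mice, against 2.11% of all genes tested. *Fos* had 1 UMI in all NoFR pericytes and 0 in all FC pericytes, and *Arc* and *Npas4* had 0 in both, so no difference was detectable at this depth. Of 9 tested heat shock genes 8 had negative values with a median of −0.36 and 0 were called (*Hsp90aa1*, adjusted p = 0.217). No gene was called among 8 tested genes of interferon and antigen presentation (*H2-K1*, 0.838), 11 of glycolysis (*Tpi1*, 0.527), 85 of the nuclear-encoded respiratory chain (*Uqcrc2*, 0.675), 87 ribosomal protein genes (*Rpl18*, 0.504) and 13 mitochondrially encoded genes (*mt-Co1*, 0.321), where the adjusted p of the member with the smallest is given. With 0.347% of all genes tested called lower and 0.158% higher, these lists without a call do not stand apart from the rest.

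The 10 genes that rose had log2 fold changes of 0.42 to 1.59. *Asap2*, an activator of the GTPase activity of ARF proteins, was at 198, 199, 210.2 and 185 CPM in FC and 443, 306, 327 and 371 in NoFR mice (log2 fold change 0.95, SE 0.17, adjusted p = 0.00026). *Psd3*, an exchange factor for ARF6, was at 299, 392, 352 and 369.5 CPM in FC and 573, 515, 505 and 563 in NoFR mice (log2 fold change 0.67, SE 0.14, adjusted p = 0.00412). *Dlc1*, a RhoGAP and the most abundant of these transcripts, was at 3886, 3963, 4070.2 and 4123 CPM in FC and 5407, 4874, 4969 and 5871 in NoFR mice (log2 fold change 0.42, SE 0.10, adjusted p = 0.011). The NoFR mice lay above the FC mice in each of these. *Mast4*, a microtubule-associated kinase, was at 792, 635, 808 and 776 CPM in FC and 1141, 838, 1148 and 1323 in NoFR mice (log2 fold change 0.60, SE 0.13, adjusted p = 0.00365). *Itga4*, the integrin alpha 4 subunit that binds VCAM1 and fibronectin, was at 371, 388, 465 and 480.4 CPM in FC and 536, 606, 583 and 722 in NoFR mice (log2 fold change 0.61, SE 0.14, adjusted p = 0.0156). Both were separated between the groups. *Gm13889*, the gene with the smallest adjusted p of the 10, was at 208, 247, 194 and 206 CPM in FC and 516, 538, 419 and 284 in NoFR mice (log2 fold change 1.09, SE 0.16, adjusted p = 1.06e-05).

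The largest fold changes among the genes that rose were in transcripts of low abundance. *Nuak1*, an AMPK-related kinase, was at 6.29, 30.7, 40.2 and 21.1 CPM in FC and 60.5, 67.9, 70.3 and 41.7 in NoFR mice (log2 fold change 1.59, SE 0.38, adjusted p = 0.0201). *Rasl11a*, a Ras-like GTPase, was at 34.6, 26.3, 56.7 and 52.8 CPM in FC and 117, 108, 118 and 96.0 in NoFR mice (log2 fold change 1.43, SE 0.32, adjusted p = 0.00773). *Nhs*, a regulator of actin, was at 53.5, 65.7, 56.7 and 47.5 CPM in FC and 117, 142, 72.8 and 96.0 in NoFR mice (log2 fold change 1.21, SE 0.28, adjusted p = 0.0101). The groups did not overlap in these genes, and the gap was narrowest in *Nuak1*. *Sema6d*, a transmembrane semaphorin, was at 389.9, 493, 402 and 433 CPM in FC and 665, 583, 648 and 492 in NoFR mice (log2 fold change 0.61, SE 0.14, adjusted p = 0.0101), with FC 2 just above NoFR 4. *Gm13889* and *Asap2* kept their calls without any 1 mouse. *Dlc1* lost its call without NoFR 1 (log2 fold change 0.39, adjusted p = 0.0907), *Psd3* without FC 1 (0.56, adjusted p = 0.0688), and *Mast4* without FC 2 or NoFR 1 (0.52 and 0.56, adjusted p of 0.0771 and 0.0644). *Nhs* lost it without NoFR 2 or FR 3 (1.17 and 1.05, adjusted p of 0.0547 and 0.0626) and *Rasl11a* without FC 1, FC 2 or NoFR 1 (1.12 to 1.36, adjusted p of 0.0535 to 0.189). *Sema6d* lost it without FC 1, NoFR 1 or NoFR 3 (0.54 to 0.59, adjusted p of 0.0688 to 0.0872). *Itga4* lost it without FC 1, FC 2, NoFC 4 or NoFR 4 (0.53 to 0.58, adjusted p of 0.0562 to 0.102), and *Nuak1* without FC 1, NoFR 1, NoFR 2, NoFR 3, FR 3 or FR 4 (1.30 to 1.62, adjusted p of 0.061 to 0.135).

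**Figure D4:**
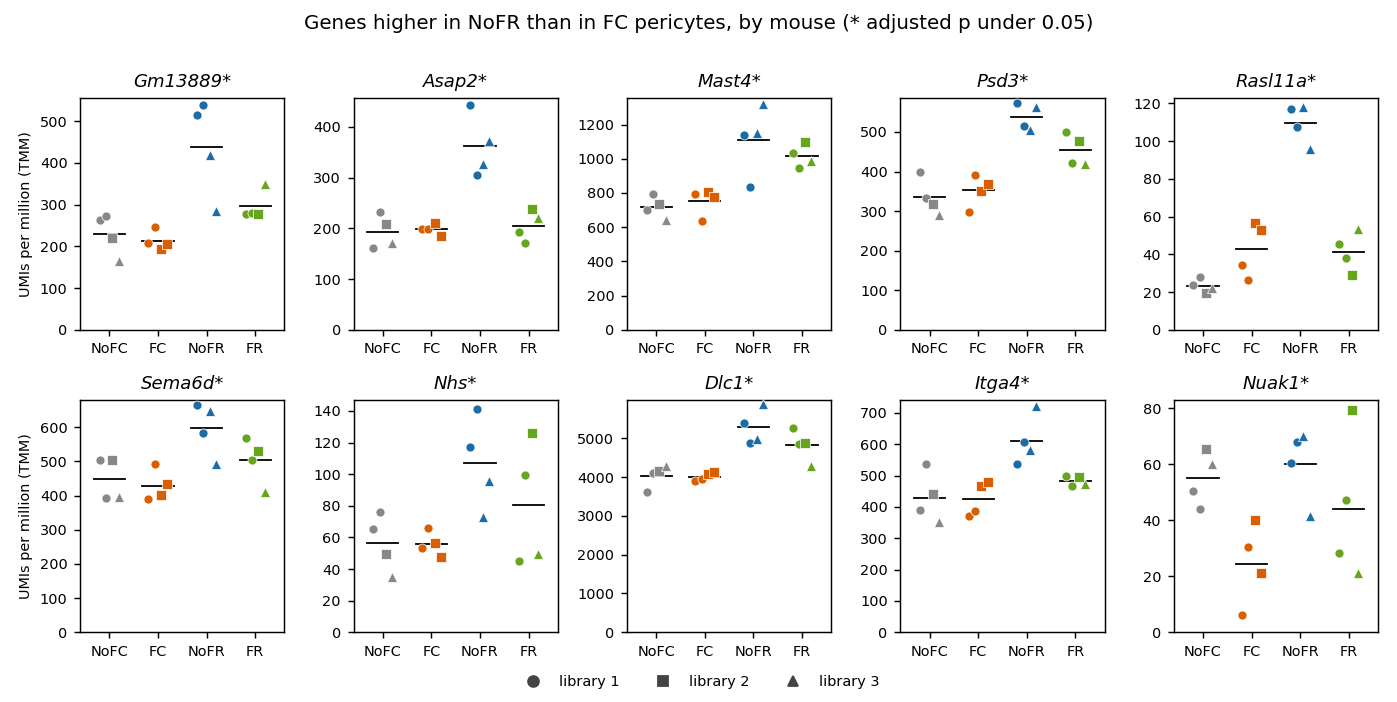
Level of the 10 genes called higher in NoFR than in FC pericytes in each of 16 mice, in TMM-scaled CPM on a linear axis from 0, by group, with symbols for the library and a line at the mean of 4 mice. The NoFR mice lie above the FC mice in 9 of the 10 genes, and *Sema6d* overlaps between FC 2 and NoFR 4.

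NoFR and FC mice met only in library 1, so the change was also computed within it and between the other libraries. With only its 2 NoFR and 2 FC mice, 30 of the 32 genes passed the filter, all 30 with the direction of the full fit, 11 of them called. Between the 2 NoFR mice of library 3 and the 2 FC mice of library 2, where library and group cannot be told apart, all 32 kept their direction and 10 were called. The 32 genes were called with these same mice, so their direction was largely set by that choice and is not a replication. For *Zbtb16* the log2 fold change was −3.46 within library 1 and −3.63 across the others, and for *Dbp* it was −1.99 and −1.32. The gap between the subsets was widest for *Ier3*, at −1.69 and −0.39, and for *Rasl11a*, at 1.90 and 0.96.

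**Figure D5:**
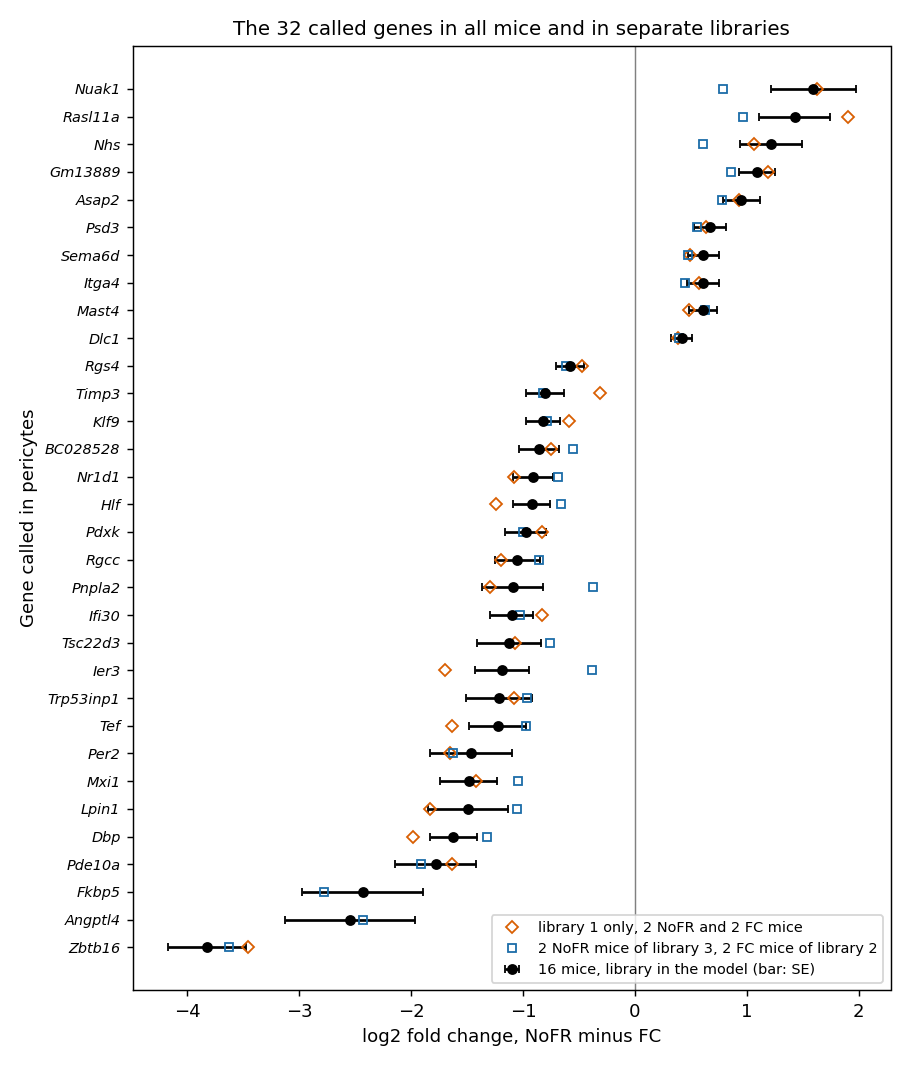
Log2 fold change (NoFR minus FC) of the 32 called genes in the fit of all 16 mice with the library as a covariate (filled circles, bar SE), within library 1 alone (diamonds) and between the NoFR mice of library 3 and the FC mice of library 2 (squares). All values shown have the same sign for a gene, *Ier3* and *Rasl11a* differ most between the 2 subsets, and *Fkbp5* and *Angptl4* have no diamond because they did not pass the filter in library 1.

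NoFR pericytes also differed from those of NoFC mice, while FC and NoFC pericytes were not shown to differ. These contrasts share mice with the one above, so their values are given side by side and are not independent of it. NoFR against NoFC gave 77 called genes (1.22% of those tested), 32 higher and 45 lower. Between FC and NoFC, edgeR called 0 genes (0%), with 290 at an unadjusted p under 0.05 and 0 in DESeq2.

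*Zbtb16* was at 80.2, 100.4, 149 and 193 CPM in the 4 NoFC mice, which overlapped with the FC mice and not with the NoFR mice. Its log2 fold change was 0.27 (SE 0.19) for FC minus NoFC and −3.55 (SE 0.33) for NoFR minus NoFC. *Dbp* was at 472, 369.5, 398 and 436 CPM in the NoFC mice, above the FC mice, which in turn lay above the NoFR mice. Its log2 fold change was −0.48 (SE 0.15, adjusted p = 0.753) for FC minus NoFC and −2.11 (SE 0.19) for NoFR minus NoFC. Of the 32 genes, *Nuak1*, *Angptl4*, *Pnpla2* and *Ier3* did not pass the test of NoFR against NoFC (adjusted p of 0.806, 0.243, 0.139 and 0.116).

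FR mice were killed on the same day after conditioning as NoFR mice, 90 min after recall began. Against FC they gave 0 called genes (0%), with 327 at an unadjusted p under 0.05 and 0 in DESeq2, and NoFR against FR gave 11 (0.174%), 2 higher and 9 lower. *Zbtb16* was at 62.4, 104, 72.1 and 103 CPM in the FR mice, all above the NoFR mice (NoFR minus FR −2.92, SE 0.37, adjusted p = 2e-07, edgeR). *Dbp* was at 380.2, 271, 180.3 and 188 CPM in the FR mice, likewise all above (NoFR minus FR −1.32, SE 0.21, adjusted p = 7.88e-05). *Klf9* and *Asap2* also differed between NoFR and FR (adjusted p of 0.000429 and 0.00148, edgeR). So did the clock output genes *Hlf*, *Nr1d1* and *Per2* (0.0421 each). The rest of the 11 were *Rasl11a* (0.00856) and *Pdxk*, *Pde10a* and *Lpin1* (0.0339 each). *Tef*, *Fkbp5* and *Tsc22d3* did not pass this test (0.622, 0.475 and 0.928). Nor, for example, did *Rgs4* and *Mast4* (0.965 and 0.91), whose FR means lay nearer to NoFR than to FC. The means in FC, NoFR and FR were 2004, 1376 and 1433 CPM for *Rgs4* and 753, 1112 and 1017 for *Mast4*. *Arntl*, counted below the filter, was at 10.5, 26.2, 30.3 and 26.4 CPM in the FR mice, which overlapped with the NoFR mice.

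Whether the change differed from that in astrocytes of the same mice was tested as an interaction in edgeR. With the hashtag rule used for pericytes, 9 mice had at least 5 astrocytes, 3 NoFR and 2 FC among them, and 0 of 8086 genes were called (272 at an unadjusted p under 0.05, no other tool run). In that fit the change in pericytes minus that in astrocytes was −2.61 (SE 0.78, adjusted p = 0.865) for *Zbtb16* and −2.06 (SE 0.61, adjusted p = 0.865) for *Dbp*. A looser rule, under which an astrocyte's top hashtag needed only 5 UMIs and a lead of 2-fold over the next, brought in all 16 mice and 1256 astrocytes, 164 of NoFR and 608 of FC mice, and called 3 of 8142 genes. These were *Zbtb16*, *Dbp* and *Arntl*, with differences of −3.20 (SE 0.49), −1.88 (SE 0.36) and 3.09 (SE 0.66) and adjusted p of 1.68e-06, 0.00108 and 0.0106. In astrocytes alone their log2 fold changes were −0.40 (SE 0.27), 0.20 (SE 0.25) and −0.05 (SE 0.28). *Tef*, *Hlf*, *Nr1d1*, *Per2*, *Klf9*, *Fkbp5* and *Tsc22d3* were not shown to differ between the cell classes under either rule. Under the looser rule FC 1 had 594 assigned barcodes, 87 of them pericytes, against 215, 119 and 78 assigned in FC 2, FC 3 and FC 4. Most astrocytes of the FC group under that rule thus came from FC 1. The share of astrocytes whose looser hashtag names the wrong mouse was not tested.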

How the data were processed

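For each barcode the authors deposited raw UMI counts of genes and of hashtags, made per the labels with Cell Ranger 3.0 (the matrix headers name 7.0.0) on mm10, and a table that ties hashtags to mice. From these counts, barcodes were filtered, assigned by their top hashtag and summed per mouse. A lead over the next hashtag and the limits on markers of other cell types stood in for a doublet caller. Counts were tested in edgeR 4.0.16 (R 4.3.3) with TMM, the default expression filter and group and library as terms, and single values by exact permutation over mice of log2(CPM + 1). The scripts were tested on simulated counts. Alternatives used DESeq2 1.42.0, limma 3.58.1 and the HTODemux caller of Seurat 5.3.0. Pericytes with hashtags of no listed mouse were not used. The members and gene lists were chosen with earlier results of these data known. Named were the 12 genes with the smallest adjusted p in each direction (all where fewer were called), up to 6 called members of each list or its member with the smallest p, all tested clock output genes and *Fos*, *Adra1a*, *Adrb1* and *Igfbp2* where tested. *Fos*, *Adrb1* and *Igfbp2* were not tested. Some genes of the lists are not reported here. Mouse numbers are only names and pair no mice. The sums held 187654 to 486831 UMIs a mouse. SDs are over mice. The standard errors, derived from the fold changes and F statistics of edgeR, include the variation between mice.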

Additional observations from a re-analysis of the deposited data

Results flagged for a closer look

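In 112 sets of 4 mice looked at (each named gene and mouse measure in NoFR and in FC mice), 2 had a mouse far from the other 3, where chance gives about 1 in 20. *Uqcrc2*, a subunit of respiratory complex III, was at 175 CPM in NoFR 2, away from the other NoFR mice, and the mouse FC 1 had 143 astrocytes, many more than the other FC mice.

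The change from FC to NoFR differed between pericytes and astrocytes in 3 genes when astrocytes were assigned with the looser hashtag rule. The difference in log2 fold change was −3.20 for *Zbtb16* (adjusted p = 1.68e-06, edgeR), −1.88 for *Dbp* (adjusted p = 0.00108) and 3.09 for *Arntl* (adjusted p = 0.0106). Most FC astrocytes under that looser rule came from the mouse FC 1. With the stricter rule, which left 9 mice, neither *Zbtb16* nor *Dbp* passed (adjusted p = 0.865 for both).

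A clear hashtag of no mouse in the hashtag table marked 521 pericytes, 65 in library 1, 160 in library 2 and 296 in library 3. Their groups are not given in the labels, and they entered no comparison.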

How the results depend on the processing

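Of the 32 alternatives run on the called genes, 16 of them without 1 mouse each, *Zbtb16* and *Dbp* were called in all, and no called gene changed direction in any. All alternatives drew on the mice that gave the calls. The number of called genes rose to 50 without the filter on low counts (18 higher in NoFR), 49 without the library term (20 higher), 58 with only the 8 NoFR and FC mice and no library term (34 lower, 24 higher) and 53 with hashtags of at least 5 UMIs (36 lower, 17 higher). It fell to 12 in library 1 alone (9 lower, 3 higher), 14 for NoFR of library 3 against FC of library 2 (9 lower, 5 higher), 13 with hashtags of at least 20 UMIs (9 lower, 4 higher), 22 with at most 1 UMI of *Slc1a2* and *Slc1a3* (14 lower) and 22 with mice thinned to equal totals (6 higher). DESeq2 called 23, all among the 32 of the main fit. Of the 33 that limma-voom called, 28 were among the 32, and of the 23 called with HTODemux singlets 16 were. Without 1 mouse the calls ranged from 21 (without NoFR 3) to 40, those lower from 13 to 27, those of clock output genes from 2 to 7 and those of glucocorticoid-induced genes from 2 to 5.

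Some list genes had low counts: 73 were below the filter, 12 of them at 0 UMIs in both groups. This count leaves out the respiratory chain, ribosomal and mitochondrially encoded lists. Of the clock output genes, 1 was called in NoFR of library 3 against FC of library 2 and 3 each with hashtags of at least 20 UMIs, at most 1 UMI of *Slc1a2* and *Slc1a3* and thinned totals. Of the glucocorticoid-induced genes, 1 was called in library 1 alone and 2 each in DESeq2, with hashtags of at least 20 UMIs and with thinned totals. Fewer mice or cells entered the subsets. DESeq2 gave no adjusted p to *Fkbp5*, *Per2*, *Rasl11a*, *Angptl4*, *Nuak1* and *Lpin1*, and an adjusted p of 0.225 to *Tsc22d3*. Why calls were lost in these settings was not tested. *Hsp90aa1* and *Myh11*, not called, turned to log2 fold changes of 0.037 and 0.43 in NoFR of library 3 against FC of library 2. The difference in pericyte share ranged from −7.71 to 13.3 percentage points without 1 mouse. The interaction with astrocytes gave 3 genes under the looser hashtag rule and 0 under the stricter. For HTODemux, hashtags with under 0.5 UMIs a barcode were dropped, a limit set after seeing the data. No paired analysis was possible because mouse numbers do not tie mice of different groups.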
